A study of Mus musculus with 29 samples.

Results

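The genes described here are 10 members of the antioxidant and detoxification response in mouse lung: the transcription factor gene Nfe2l2, which encodes Nrf2, and Nqo1, Gclc, Gclm, Txnrd1, Srxn1, Hmox1, Gstm1, Gstm2 and Aldh3a1. They were taken as a fixed list of gene symbols, with no cut-off on a measured value. The list was chosen with earlier results of these data known, and every probe set annotated to one of the genes was followed. The 10 genes have 21 probe sets among the 45101 on the array, out of 18193 genes with a probe set of their own, and all 21 passed the filter on low signals. Lung tumours and 1 normal lung of mice on a mixed 129/Bl6 background were profiled on Affymetrix expression arrays. Every animal, the normal lung included, carried CCSP-rtTA, a doxycycline-dependent activator under an airway club cell promoter. The 8 TI-K primaries also carried an inducible oncogene under a TRE promoter. The 14 TI-KM primaries and the 6 recurrences carried that oncogene and TRE-Mad2, which adds an inducible spindle checkpoint gene, and the title of the study sets these recurrences after withdrawal of the oncogene. The labels call the tumours adenocarcinoma/adenoma of the lung, and the age of the animals, their doxycycline state at collection and the interval to recurrence are not given in the sources used here. The titles of TI-KM primaries 1 and 2 hold the same number, 76, so both may be tumours of 1 animal. Nothing in the labels says that the other samples of a group came from separate animals, so the p-values measure only the spread between these samples.

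Nrf2 is held at a low level by Keap1, which passes it to a ubiquitin ligase for degradation. Oxidants and electrophiles release it, and in the nucleus it pairs with a small Maf protein on the antioxidant response element of genes for glutathione synthesis, thioredoxin recycling, quinone reduction and conjugation. Because this control acts mainly on the protein, the level of Nfe2l2 mRNA does not measure Nrf2 activity. In the lung, club cells hold much of the xenobiotic metabolism: oxidation by cytochrome P450 and flavin monooxygenases, followed by coupling to glutathione.

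The promoters of these genes are shown because Nrf2 is known to act through a short sequence, and because Txnrd1, Srxn1, Gstm1 and Gstm2 were all higher in the recurrences than in the TI-K primaries. RefSeq promoter entries on GRCm38.p6 were found for 7 of the 10 genes, in 10 windows of the 250 bases before an annotated start, which were searched on both strands. The core of the antioxidant response element, TGACNNNGC, stood in 3 windows, of Nfe2l2, Gclm and Txnrd1, against 10.2% of all 32851 promoter windows. A relaxed core, TGANNNNGC, of which every strict core is an instance, stood in 5 windows of 4 genes, with Srxn1 added, against 35.2%. The core of the xenobiotic response element bound by the Ahr receptor, GCGTG, stood in 7 of the 10 windows, against 28.2%. These were windows of Gclm, Txnrd1, Srxn1 and Gstm1, with more than 1 window each for Txnrd1 and Gstm1. The windows of Gstm1 overlap and hold the same match, so it is counted more than once. Each sequence is written 5′ to 3′ on the strand of the gene, with the strict core in capitals and, for Srxn1, which has no strict core, the 3 relaxed matches in capitals. A core read on the opposite strand appears as its reverse complement, as in Gclm and Txnrd1.
Nfe2l2 (chr2:75704664-75704913, minus strand): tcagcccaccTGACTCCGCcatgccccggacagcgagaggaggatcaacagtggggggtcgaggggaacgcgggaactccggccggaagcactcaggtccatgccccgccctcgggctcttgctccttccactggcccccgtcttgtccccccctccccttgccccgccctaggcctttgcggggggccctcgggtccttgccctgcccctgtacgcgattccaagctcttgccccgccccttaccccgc
Gclm (chr3:122245307-122245556, plus strand): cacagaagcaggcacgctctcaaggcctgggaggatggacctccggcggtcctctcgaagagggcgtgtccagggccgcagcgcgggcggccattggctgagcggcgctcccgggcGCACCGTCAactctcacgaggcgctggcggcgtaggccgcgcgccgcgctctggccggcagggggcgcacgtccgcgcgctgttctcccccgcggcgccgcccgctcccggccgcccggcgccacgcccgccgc
Txnrd1 (chr10:82858956-82859205, plus strand): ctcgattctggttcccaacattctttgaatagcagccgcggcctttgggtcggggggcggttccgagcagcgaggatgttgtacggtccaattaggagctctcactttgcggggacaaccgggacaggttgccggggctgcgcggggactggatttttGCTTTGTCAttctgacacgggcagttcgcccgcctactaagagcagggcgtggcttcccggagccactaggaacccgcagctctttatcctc
Srxn1 (chr2:152105274-152105523, plus strand): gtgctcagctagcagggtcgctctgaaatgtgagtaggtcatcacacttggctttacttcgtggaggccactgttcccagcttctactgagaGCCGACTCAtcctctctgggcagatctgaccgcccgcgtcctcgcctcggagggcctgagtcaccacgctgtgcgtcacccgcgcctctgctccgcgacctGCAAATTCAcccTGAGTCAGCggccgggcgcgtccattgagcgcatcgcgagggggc
Gstm1 (chr3:108017819-108018068, minus strand): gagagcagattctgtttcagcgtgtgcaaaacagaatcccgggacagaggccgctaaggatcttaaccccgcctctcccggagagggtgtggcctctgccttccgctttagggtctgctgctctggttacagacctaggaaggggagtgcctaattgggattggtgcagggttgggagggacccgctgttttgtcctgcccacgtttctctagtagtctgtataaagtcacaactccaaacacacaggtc
Gstm2 (chr3:107986421-107986670, minus strand): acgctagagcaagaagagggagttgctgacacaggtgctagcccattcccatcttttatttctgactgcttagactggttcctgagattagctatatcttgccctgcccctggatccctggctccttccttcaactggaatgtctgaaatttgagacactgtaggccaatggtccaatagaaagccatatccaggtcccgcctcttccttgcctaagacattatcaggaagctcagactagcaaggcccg
The core ended 231 bases before the start in Nfe2l2, 125 in Gclm and 83 in this window of Txnrd1. The windows of Gstm1, Gstm2 and Nqo1 held neither the strict nor the relaxed core. Nqo1 was also higher in the recurrences than in the TI-K primaries, and its window is not printed, nor is the other window of Gstm1. The other windows of Txnrd1, also not printed, held no strict core. A match is a description of these letters and not a site.

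Some arrays stood apart within their groups, and the results are given with and without this split. On 10 arrays (TI-KM primaries 1 to 6 and recurrences 1 to 4) the 18S ribosomal control gave a signal of 12665 to 24001, and these form the high-18S set. TI-K primaries 1 to 5 had title numbers over 6000 and form the high-number set, with an 18S signal of 7616 to 8523. The other 13 tumours (TI-K primaries 6 to 8, TI-KM primaries 7 to 14, recurrences 5 and 6) form the remaining set, with 5939 to 10857. The normal lung, with an 18S signal of 12569, was placed in no set. No label names these sets as batches. Between the sets of the TI-KM primaries 42.3% of the 14602 genes tested differed at an adjusted p under 0.05. Between the sets of the TI-K primaries 16% did, and between those of the recurrences 0% did. The ratio of 3′ to 5′ signal on control genes, which reflects RNA integrity and labelling, was log2 1.32 ± 0.45 (SD, n = 6) in the recurrences, 2.16 ± 0.41 (n = 8) in the TI-K primaries and 2.16 ± 0.67 (n = 14) in the TI-KM primaries. Type 2 alveolar markers summed to a signal of 86645 to 176138 in every tumour and to 53573 in the normal lung, and all 7 measured had a median signal above 20 in each group. The normal lung is 1 array, so its spread is that of the tumours by assumption. It also held adipocyte markers at a summed signal of 44304, over 2 of 6 markers measured, where no tumour passed 9987.

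Among the 3 tumour groups the recurrences had the highest median signal for the conjugating, thioredoxin and haem-degrading genes of the list, and Nfe2l2 and the glutathione synthesis genes did not follow them. The 6 comparisons were made with limma on log2(signal + 20), with Benjamini-Hochberg adjustment over 14602 genes. Between recurrences and TI-K primaries 6 of the 10 genes were higher and none lower (Gstm2, Gstm1, Hmox1, Txnrd1, Srxn1 and Nqo1), where 18.9% of all genes were called and 12.2% were called higher. The members' median change was 0.80 on the log2 scale, beside 0.11 over all genes. Between recurrences and TI-KM primaries 1 of the 10 was called, Gstm2, where 0.26% of all genes were, and the median change was 0.45 beside 0.04. Between TI-KM and TI-K primaries 0 of the 10 were called by limma, where 8.01% of all genes were. Only Gstm1 had an unadjusted p under 0.05 there, and the median change was 0.26 beside 0.08. These 3 comparisons share samples, so they do not bear each other out. Each value is the average over a piece of tissue, in which fewer cells of a type and less RNA per cell cannot be told apart.

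**Figure D1:**
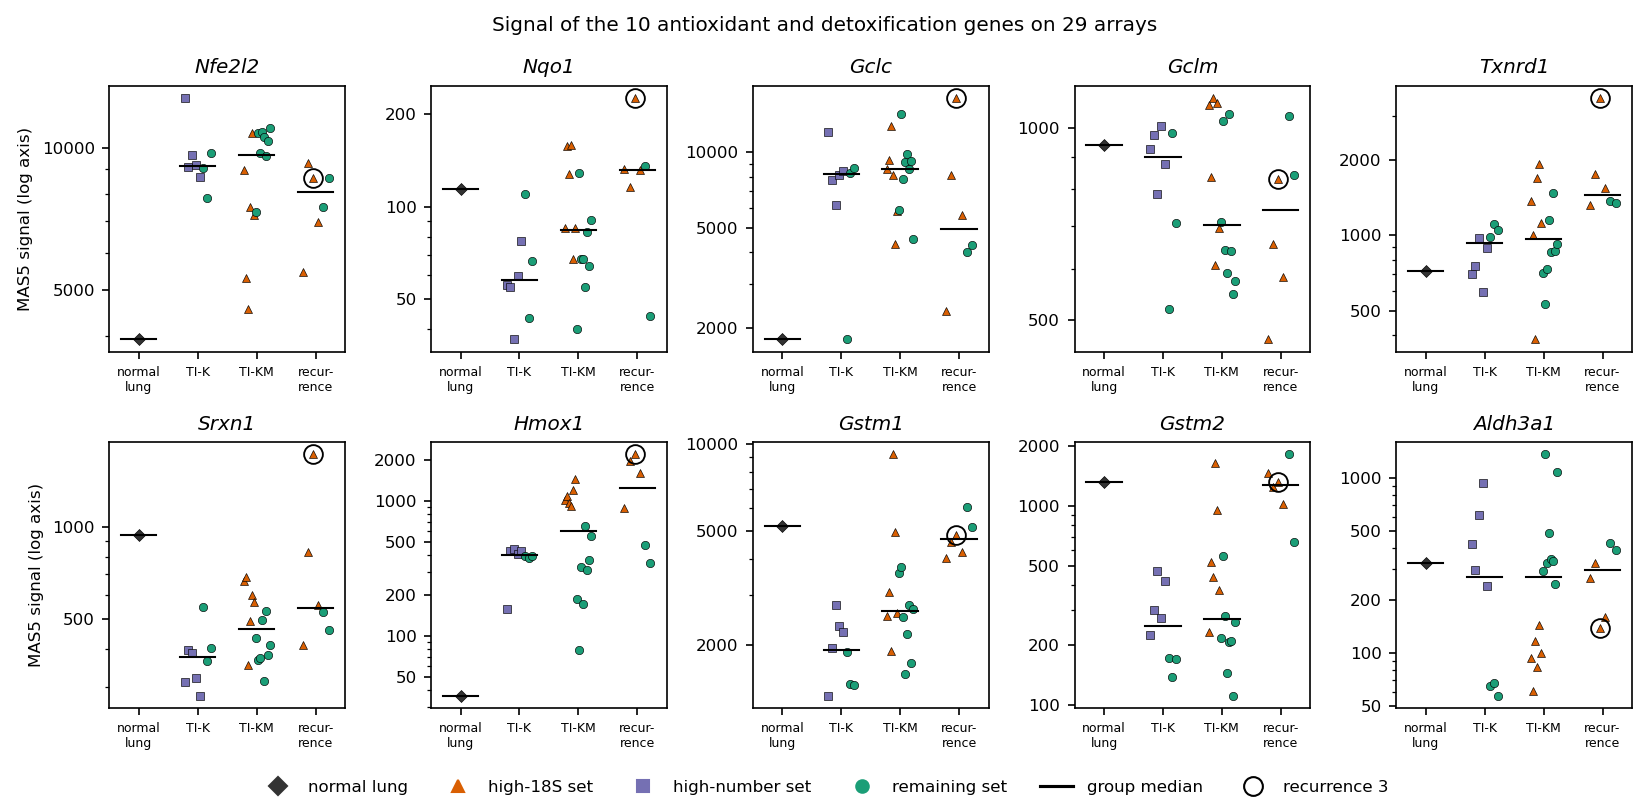
MAS5 signal (log axis) of the 10 genes on 29 arrays, 1 panel a gene, with the normal lung and the 8 TI-K, 14 TI-KM and 6 recurrence arrays along the horizontal axis. Points are arrays, coloured by set; lines are group medians and the ring marks recurrence 3, which is the highest array for Nqo1, Gclc, Txnrd1, Srxn1 and Hmox1.

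With the array sets in the fit 4 of the 6 differences from the TI-K primaries shrank. With the sets as a block, where the TI-K primaries are compared through the 3 in the remaining set, 0.0959% of all genes were called and 1 of the 10, Aldh3a1. Gstm1 and Gstm2 kept their size under the block (1.40 and 2.12 on the log2 scale, against 1.34 and 2.17 without it) but not their call, with limma adjusted p = 0.120 and 0.0649. Txnrd1, Srxn1, Nqo1 and Hmox1 shrank to 0.43, 0.28, 0.28 and 0.07, with adjusted p = 0.71, 0.778, 0.802 and 0.971. Recurrence 3 also mattered: without it only Gstm1 and Gstm2 were called, and without recurrence 2 only Gstm1, Gstm2 and Txnrd1. With the 3′ to 5′ ratio as a covariate the 3 calls were Gstm1, Gstm2 and Nqo1. Markers of airway cells moved the same way: all 6 ciliated and 2 of 6 measured club cell markers were called higher in recurrences than in TI-K primaries, with median changes of 1.80 and 1.30, and none was called under the block. The summed club signal was 13511 to 68299 in TI-K primaries, 11878 to 90258 in TI-KM primaries and 24968 to 106143 in recurrences. The summed ciliated signal was 194 to 1140, 370 to 5581 and 479 to 9619. None of these markers' group medians was at or under 20. Their part in the changes of the listed genes was not tested.

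**Figure D2:**
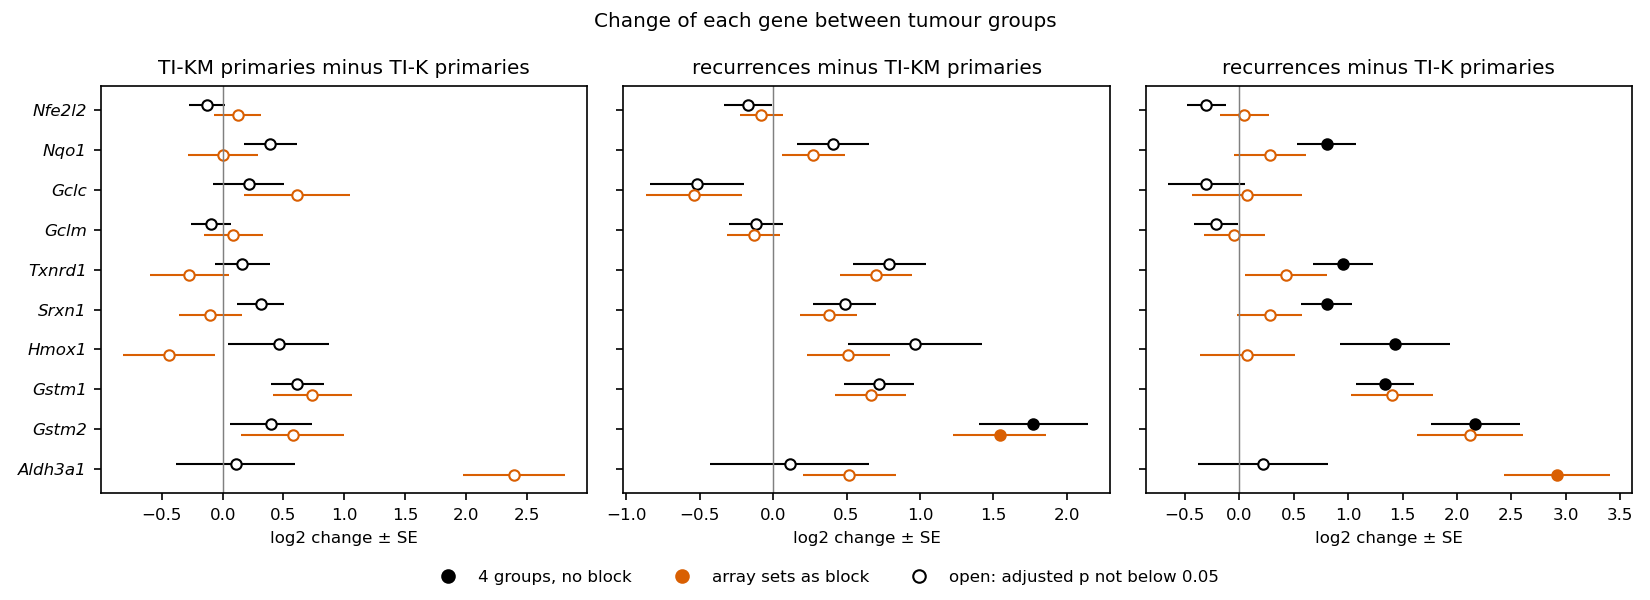
Log2 change ± SE of each gene in the 3 comparisons between tumour groups, from the fit of 4 groups without a block (black) and with the array sets as a block (orange); filled symbols had an adjusted p under 0.05. In recurrences minus TI-K primaries 6 black symbols are filled, and with the block only Aldh3a1 is.

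Nfe2l2, the gene of Nrf2 itself, differed in no comparison between tumours. Its signal was 7816 to 12732 in the TI-K primaries (median 9158) and 4566 to 11023 in the TI-KM primaries (median 9669). In recurrences 1 to 6 it was 5473, 9272, 8633, 6985, 7484 and 8649, and in the normal lung it was 3939. The 3 tumour groups overlapped, and the normal lung lay below all 28 tumours. The log2 change was -0.13 ± 0.15 (SE) from TI-K to TI-KM primaries (limma adjusted p = 0.584) and -0.30 ± 0.18 from TI-K primaries to recurrences (adjusted p = 0.225). Within the TI-KM primaries it was lower in the high-18S set, by 0.49 on the log2 scale (adjusted p = 0.026). Its second probe set, 1457117_at, gave 416.8 in recurrence 3 and 10.9 to 140 on the other 28 arrays. On that probe set the normal lung, at 41.4, lay within the range of the tumours.

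Keap1, the adaptor that marks Nrf2 for degradation, was not called in any of the 6 comparisons. Its signal was 897 to 1194 in TI-K primaries, 1019 to 1808 in TI-KM primaries, 1171 to 1751 in recurrences and 1091 in the normal lung. Recurrences and TI-K primaries thus overlapped over a narrow band, and the change of 0.38 ± 0.14 had an adjusted p of 0.051, with 0.0376 to 0.547 over its alternatives. It passed the threshold without any one of recurrence 2, recurrence 6 or TI-K primary 8. The 9 regulators listed are Keap1, the ligase subunits Cul3 and Rbx1, Mafg, Maff, Mafk, Bach1, Nfe2l1 and Sqstm1. Between recurrences and TI-K primaries 18.9% of all genes were called, and of these 9 regulators 1 was, lower in the recurrences. That gene was Rbx1, the RING subunit of the ligase that receives Nrf2, at -0.98 ± 0.29 (adjusted p = 0.0217), with a median signal of 47.5 against 147. Its call was lost without recurrence 3 (adjusted p = 0.0598), under the block (-0.71, adjusted p = 0.507) and within the remaining set alone (adjusted p = 0.397). None of the 9 was called between TI-KM and TI-K primaries or between recurrences and TI-KM primaries, where 8.01% and 0.26% of all genes were.

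Gclc and Gclm encode the catalytic and modifier subunits of the enzyme that makes the first peptide bond of glutathione. Gclc gave 1810 to 11994 in TI-K primaries (median 8185) and 4312 to 14240 in TI-KM primaries (median 8587). In recurrences 1 to 6 it gave 2338, 8099, 16400, 5643, 4032 and 4276. Recurrence 3 was the highest of all 29 arrays and recurrence 1 was lower than every tumour but TI-K primary 6, so the recurrences spanned both primary groups. The change from TI-KM primaries was -0.52 ± 0.32 (adjusted p = 0.526) and from TI-K primaries -0.30 ± 0.35 (adjusted p = 0.566). The single low TI-K value, 1810, came from TI-K primary 6.

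Gclm was flat by its main probe set. It gave 519 to 1005 in TI-K primaries (median 901), 549 to 1113 in TI-KM primaries (median 703) and 465, 657, 831, 583, 1042 and 842 in recurrences 1 to 6, beside 939 in the normal lung. All groups overlapped, and the changes were -0.10 ± 0.17, -0.12 ± 0.18 and -0.22 ± 0.20 in the 3 tumour comparisons (adjusted p = 0.726, 0.814 and 0.461). The other probe set of Gclm, 1439050_at, read higher in recurrences than in TI-K primaries, at 0.53 ± 0.19 with an adjusted p of 0.0364 over all probe sets fitted singly. In that fit 26.9% of probe sets were called. The 2 probe sets of Gclm thus disagree in direction.

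Among the 10 other glutathione genes tested, Gpx2, a glutathione peroxidase of epithelia, was called higher in recurrences than in TI-K primaries (1.69 ± 0.51, adjusted p = 0.0236). TI-K primaries gave 78.7 to 378, TI-KM primaries 28.6 to 735 and recurrences 348 to 1382, so the recurrences overlapped the TI-K primaries only at their lowest value. Its call was lost without recurrence 2 or 3 (adjusted p = 0.0646 at most). Gpx4, the peroxidase of membrane lipids, was called lower, at -0.45 ± 0.16 (adjusted p = 0.0461), and lost the call without any one of 10 of the 14 arrays (adjusted p 0.0516 to 0.145). Under the block neither was called (adjusted p = 0.0979 for Gpx2 and 0.33 for Gpx4). No gene of this list was called in the other 2 tumour comparisons.

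Txnrd1, thioredoxin reductase 1, returns oxidised thioredoxin to its active form with NADPH. It gave 597 to 1109 in TI-K primaries (median 935) and 385 to 1922 in TI-KM primaries (median 965). Recurrences 1 to 6 gave 1325, 1756, 3535, 1541, 1367 and 1353. Every recurrence stood above every TI-K primary, which held for 3 of the 10 genes (Txnrd1, Gstm1 and Gstm2) and for 1.6% of all genes, and the TI-KM primaries overlapped both groups. No listed gene had every recurrence above every TI-KM primary, and 0% of all genes did. Txnrd1 rose 1.93-fold from TI-K primaries to recurrences (log2 0.95 ± 0.28, adjusted p = 0.0182, with 0.0109 to 0.71 over its alternatives). The call was lost without recurrence 3 (0.74, adjusted p = 0.0668), with all arrays scaled to a common median (0.84, adjusted p = 0.0663) and under the block. Within the remaining set alone, where the 3 TI-K primaries gave 982 to 1109 and the 2 recurrences 1353 and 1367, the change was 0.37. Against the TI-KM primaries the change was 0.79 ± 0.25 (adjusted p = 0.171). The other 2 probe sets moved by 0.96 and 1.02 between recurrences and TI-K primaries, with adjusted p = 0.0921 and 0.085. On both of them the recurrences overlapped the TI-K primaries. The recurrences gave 66.0 to 732 against 62.4 to 217 on 1424486_a_at, and 24.3 to 401 against 8.29 to 91.4 on 1424487_x_at.

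Srxn1 encodes sulfiredoxin, which repairs over-oxidised peroxiredoxins. It gave 280 to 549 in TI-K primaries (median 376), 314 to 686 in TI-KM primaries (median 463) and 942 in the normal lung. Recurrences 1 to 6 gave 412, 827, 1731, 557, 528 and 460. Recurrences 2 and 3 stood above all primaries of both kinds, and the other 4 lay within the range of the TI-KM primaries. Srxn1 rose 1.74-fold from TI-K primaries to recurrences (log2 0.80 ± 0.24, adjusted p = 0.0199, with 0.0098 to 0.809 over its alternatives). The call was lost without recurrence 2 (adjusted p = 0.0527), without recurrence 3 (0.53, adjusted p = 0.0739) and under common median scaling (adjusted p = 0.0505). The probe set 1425351_at had a like change of 0.74 (adjusted p = 0.0199), while 1451680_at had 0.11 (adjusted p = 0.773).

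Of the 12 other thioredoxin and peroxide genes tested, 3 were called higher in TI-KM than in TI-K primaries and none lower, where 8.01% of all genes were called, and the list's median change was 0.12 beside 0.08. Prdx4, a peroxiredoxin of the endoplasmic reticulum, rose by 1.30 ± 0.30 (adjusted p = 0.0127). The TI-K primaries gave 1646 to 11333 and the TI-KM primaries 3883 to 19297. That change was -0.01 with the sets as a block. Sod1, the cytosolic superoxide dismutase, rose by 0.54 ± 0.10 (adjusted p = 0.0054), but the probe set of highest variance gave -0.55. Txn2, the mitochondrial thioredoxin, named after its value was seen, rose by 0.54 ± 0.13 (adjusted p = 0.0134). Between recurrences and TI-K primaries Txn2 (0.69, adjusted p = 0.00428) and Sod1 (0.35, adjusted p = 0.0361) were called higher. Txn1, the cytosolic thioredoxin that Txnrd1 reduces, fell by 0.66 on the log2 scale (adjusted p = 0.00796). TI-K primaries gave 25630 to 38336 and recurrences 17131 to 21547, which did not overlap, though its probe set of highest variance gave 0.44. Sod1 lost that call without any one of 9 arrays (adjusted p 0.0501 to 0.0722). Under the block none of the 12 was called in either comparison: from TI-K primaries to recurrences Txn2 gave 0.39 (adjusted p = 0.408), Sod1 0.06 (adjusted p = 0.926) and Txn1 -0.65 (adjusted p = 0.238).

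Hmox1, haem oxygenase 1, breaks haem down to biliverdin, iron and carbon monoxide, and it is also strongly expressed by macrophages. It gave 159 to 442 in TI-K primaries (median 398), 78.3 to 1464 in TI-KM primaries (median 599) and 36.1 in the normal lung. Recurrences 1 to 6 gave 887, 1975, 2220, 1627, 472 and 345. The first 5 stood above every TI-K primary, recurrence 5 narrowly (472 against at most 442), and recurrence 6 did not. The first 4, which belong to the high-18S set, gave more than the last 2, which belong to the remaining set. The same split ran through the TI-KM primaries, at 925 to 1464 in the high-18S set and 78.3 to 650 in the remaining set, a difference of 1.901 ± 0.333 (adjusted p = 0.000354). In the recurrences it was 1.92 ± 0.40 (adjusted p = 0.0881).

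From TI-K primaries to recurrences Hmox1 rose 2.69-fold (log2 1.43 ± 0.51, adjusted p = 0.0463). This call was lost without any one of 12 of the 14 arrays (adjusted p 0.0538 to 0.12; recurrences 5 and 6 were the exceptions), and the adjusted p ran from 0.0155 to 0.979 over all alternatives. Within the remaining set alone the change was 0.06. No TI-K primary belongs to the high-18S set, so that set and the group cannot be told apart for the 4 high recurrences. None of the 7 macrophage markers measured was called in a comparison between tumours. Their summed signal was 17816 to 43327 in TI-K primaries, 13203 to 34723 in TI-KM primaries and 7568 to 31586 in recurrences. None of the other 4 haem and ferritin genes tested was called in any of the 3 tumour comparisons.

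Nqo1 encodes a quinone reductase and is often read as a sign of Nrf2 activity. Its signal was low, at 37.1 to 111 in TI-K primaries (median 57.7), 40.2 to 159 in TI-KM primaries (median 84.2) and 114 in the normal lung. Recurrences 1 to 6 gave 133, 116, 226, 132, 136 and 44.2. The first 5 stood above every TI-K primary and recurrence 6 lay among them. Nqo1 rose 1.74-fold (log2 0.80 ± 0.27, adjusted p = 0.0374, with 0.00587 to 0.92 over its alternatives). The call was lost without any one of 10 of the 14 arrays (adjusted p 0.0534 to 0.113), and was kept only without recurrence 6 or TI-K primary 5, 6 or 8. Against the TI-KM primaries the change was 0.41 ± 0.24 (adjusted p = 0.51).

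Gstm1 and Gstm2, mu-class glutathione S-transferases that couple glutathione to electrophiles, were higher in every recurrence than in every TI-K primary. Gstm2 gave 138 to 471 in TI-K primaries (median 248) and 111 to 1646 in TI-KM primaries (median 271). Recurrences 1 to 6 gave 1469, 1240, 1310, 1021, 1813 and 661, and the normal lung 1316. Every recurrence was also above 12 of the 14 TI-KM primaries. TI-KM primaries 4 (1646) and 5 (957) reached into the recurrences' range.

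Gstm2 rose 3.41-fold from TI-KM primaries to recurrences (log2 1.77 ± 0.37, adjusted p = 0.0305, with 0.00544 to 0.445 over its alternatives). With the sets as a block it was 1.54 (adjusted p = 0.0222, where 0.705% of all genes were called). Within the remaining set alone it was 2.19 (adjusted p = 0.0947) and within the high-18S set 1.11 (adjusted p = 0.445), where 0.0822% and 0.00685% of all genes were called. The call was lost without recurrence 1, 2, 3 or 5 or TI-KM primary 13 (1.65 to 1.76, adjusted p 0.0505 to 0.0758), and with the 3′ to 5′ ratio as a covariate (1.67, adjusted p = 0.414). Gstm2 rose 4.50-fold from TI-K primaries (log2 2.17 ± 0.41, adjusted p = 0.00127), and 2.64 within the remaining set alone (adjusted p = 0.0542). Within the primaries it was also higher in the high-18S set of TI-KM (by 1.26, adjusted p = 0.0123) and in the high-number set of TI-K (by 0.94, adjusted p = 0.0245).

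Gstm1 gave 1336 to 2752 in TI-K primaries (median 1929), 1596 to 9224 in TI-KM primaries (median 2634) and 4011, 4556, 4825, 4230, 6070 and 5144 in recurrences 1 to 6, beside 5184 in the normal lung. All 6 recurrences were above all 8 TI-K primaries, and the highest array of all was TI-KM primary 4. Gstm1 rose 2.53-fold from TI-K primaries to recurrences (log2 1.34 ± 0.26, adjusted p = 0.0018). Within the remaining set alone it was 1.80 (adjusted p = 0.0376, where 0.13% of all genes were called). From TI-KM primaries the change was 0.72 ± 0.24 (adjusted p = 0.195), and without TI-KM primary 4 it was 0.85 (adjusted p = 0.0492). From TI-K to TI-KM primaries it was 0.61 ± 0.22 (adjusted p = 0.0691, with 0.0188 to 0.94 over its alternatives).

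The 4 probe sets of Gstm1 differed in size. Fitted singly, a setting added after the data were seen, 1425626_at was higher in TI-KM than in TI-K primaries by 1.21 ± 0.27 (adjusted p = 0.00556) and 1425627_x_at by 1.11 ± 0.31 (adjusted p = 0.0164), where 15.8% of probe sets were called. The other 2, 1416416_x_at and 1448330_at, had 0.61 and 0.66 (adjusted p = 0.0502 and 0.0594). All 4 were called higher in recurrences than in TI-K primaries, from 1.34 to 1.94. Against the TI-KM primaries none of the 4 was called, where 0.442% of probe sets were. Mu-class genes are near copies of each other, and probe sets whose names end in _x_at can bind more than 1 of them, so the signals of Gstm1 and Gstm2 may hold some of their relatives.

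**Figure D3:**
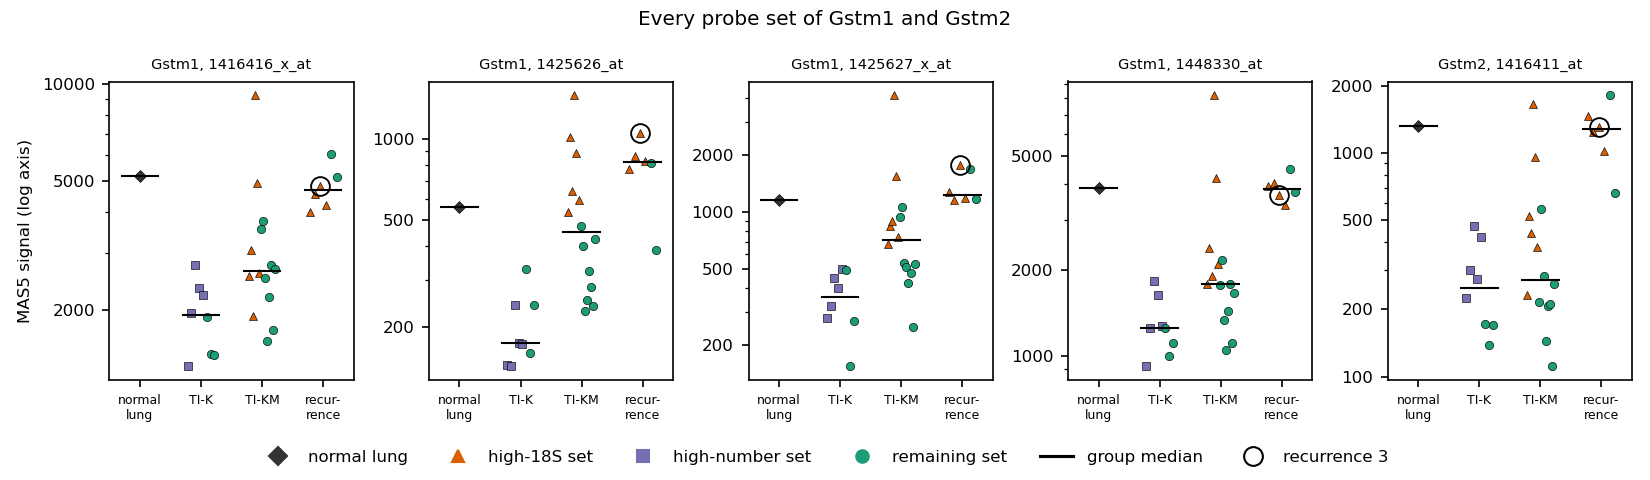
MAS5 signal (log axis) of the 4 probe sets of Gstm1 and the 1 of Gstm2 on 29 arrays by group, coloured by set, with group medians as lines and recurrence 3 ringed. Every recurrence stands above every TI-K primary on all 5 panels, and 1 TI-KM primary, number 4, is the highest array on the 4 panels of Gstm1.

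Of 17 further glutathione S-transferase genes tested, 5 were called higher in recurrences than in TI-K primaries, none lower and 12 not called, where 12.2% of all genes were called higher and 18.9% in either direction, and the list's median change was 0.34 beside 0.11 over all genes. Gstm3 rose by 1.82 ± 0.39 (adjusted p = 0.00356), with 72.5 to 159 in TI-K primaries and 161 to 755 in recurrences, which did not overlap. Gsta3 rose by 1.55 ± 0.38 (adjusted p = 0.00807). The others, named after their values were seen, were Gstm7 (1.27, adjusted p = 0.0145), Gstm4 (0.74, adjusted p = 0.0124) and Gstp1, the pi-class enzyme (0.52, adjusted p = 0.00588). None of the 17 was called between recurrences and TI-KM primaries. Between TI-KM and TI-K primaries Gstm3 (1.17, adjusted p = 0.027) and Gstp1 (0.34, adjusted p = 0.034) were called higher. Both calls were lost without any one of TI-K primaries 1, 2, 4 or 5, and Gstp1 also without TI-K primary 3 or TI-KM primary 4. With the sets as a block none of the 17 was called.

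Aldh3a1, an aldehyde dehydrogenase of airway and corneal epithelium, differed between array sets within both primary groups. In the fit without the block it differed between no groups. It gave 57.0 to 929 in TI-K primaries (median 270), 60.6 to 1363 in TI-KM primaries (median 270) and 268, 326, 140, 161, 424 and 387 in recurrences 1 to 6. The changes between groups were 0.11 ± 0.49, 0.11 ± 0.54 and 0.22 ± 0.60 (adjusted p = 0.907, 0.948 and 0.821). Within TI-K primaries the high-number set gave 241 to 929 and the remaining set 57.0 to 67.2, a difference of 2.49 ± 0.36 (adjusted p = 0.00361). Within TI-KM primaries the high-18S set gave 60.6 to 145 and the remaining set 248 to 1363, a difference of -2.04 ± 0.34 (adjusted p = 0.000235). Neither pair of ranges overlapped. With the sets as a block Aldh3a1 was 7.55-fold higher in recurrences than in TI-K primaries (2.92 ± 0.49, adjusted p = 0.0139), a value that rests on the 3 TI-K primaries of the remaining set. From TI-K to TI-KM primaries the block gave 2.40 (adjusted p = 0.0665).

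Of the 32 other oxidoreductases of the first phase tested, 5 were called higher in recurrences than in TI-K primaries and none lower, near the 12.2% called higher over all genes. The list's median change was 0.49 beside 0.11. Cyp2f2, the cytochrome P450 of club cells and itself one of the club markers, rose by 2.02 ± 0.60 (adjusted p = 0.0208), with 773 to 11297 in TI-K primaries and 2163 to 20650 in recurrences. Akr1c12, an aldo-keto reductase, rose by 1.97 ± 0.66 (adjusted p = 0.036). Without recurrence 1 or 2 Cyp2f2 lost the call (adjusted p = 0.0521 and 0.0535), and Akr1c12 did so without any one of 7 arrays (adjusted p 0.0505 to 0.118). Cyp1b1 (1.73, adjusted p = 0.0204) and Cyp1a1 (1.35, adjusted p = 0.0181), targets of the Ahr receptor named after their values were seen, completed the list with Fmo2. Of these, Fmo2 kept its call under the block (2.55, adjusted p = 0.0139), while Cyp2f2 gave 2.57 (adjusted p = 0.204) and Akr1c12 1.33 (adjusted p = 0.625), and no other gene of the 32 was called.

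Fmo2, the flavin monooxygenase of lung, was the only gene of the 99 tested from the 8 lists that was called between recurrences and TI-KM primaries, where it rose 2.90-fold (1.54 ± 0.34, adjusted p = 0.0422). It gave 743 to 2874 in TI-KM primaries, 692 to 4397 in TI-K primaries, 2336 to 6780 in recurrences and 8172 in the normal lung, so the groups overlapped. With the sets as a block it was 1.62 (adjusted p = 0.00583), and without any one of 13 of the 20 arrays the call was lost (adjusted p 0.0514 to 0.107). Of the 10 conjugation and efflux genes tested 1 was called in the comparisons between tumours, Abcc5, a nucleotide exporter. It was lower in TI-KM than in TI-K primaries by 0.44 on the log2 scale (adjusted p = 0.0275) and lower in recurrences (-0.80 ± 0.15, adjusted p = 0.00114). The first call was lost without any one of TI-K primaries 1 to 5 (adjusted p 0.0536 to 0.0684), and with the mean of all its probe sets the change was 0.01. Neither call held under the block (adjusted p = 0.975 and 0.155). Over all 99 genes 13 were called higher and 4 lower in recurrences than in TI-K primaries, 6 and 1 in TI-KM than in TI-K primaries, and 1 and 0 in recurrences than in TI-KM primaries. These shares are near or below the 18.9% and 8.01% of all genes called in the first 2 comparisons, beside 0.26% in the last. Of the 5 NADPH genes tested none was called in these comparisons.

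By the design used, few listed genes were called against the normal lung and none was called lower. Within the remaining set alone Srxn1, Gstm1 and Gstm2 were called lower in TI-K primaries (-1.09, -1.69 and -2.89 on the log2 scale). They were also called lower there in TI-KM primaries (-1.17, -1.05 and -2.45). The normal lung is not matched to this set by 18S signal, at 12569 against 5939 to 10857. By range, Nfe2l2, Gclc and Hmox1 were higher in every one of the 28 tumours than in the normal lung, 3 of 10 genes, where 12.6% of all genes were. Nqo1, Srxn1, Gstm1 and Gstm2 were lower in every TI-K primary than in the normal lung, 4 of 10 genes, where 27.6% of all genes were. Against the TI-K primaries 1 of the 10 was called, where 13.5% of all genes were: Nfe2l2, at 2.38-fold (1.25 ± 0.35, adjusted p = 0.014). Against the TI-KM primaries 3 were called, where 14.9% of all genes were. These were Nfe2l2 (1.12 ± 0.34, adjusted p = 0.0238), Gclc, at 4.39-fold (2.14 ± 0.68, adjusted p = 0.0307), and Hmox1, at 9.41-fold (3.23 ± 0.97, adjusted p = 0.0213). Against the recurrences 1 was called, where 12.5% of all genes were: Hmox1, at 18.4-fold (4.201 ± 1.011, adjusted p = 0.00509). All 3 comparisons share the 1 normal array. Each change is that of the tumour group over the normal lung, so these called genes were higher in the tumours. Within the remaining set alone 5, 6 and 2 of the 10 genes were called against it, where 23.8%, 26.2% and 20.1% of all genes were. The second probe set of Gclc, 1455959_s_at, fitted singly, was higher than in the normal lung by 1.77, 2.17 and 1.75 (adjusted p = 0.0394, 0.0073 and 0.0466), where 9.06%, 10.3% and 9.34% of probe sets were called. That of Nfe2l2, 1457117_at, was not called, at 0.70, 0.41 and 0.47 (limma adjusted p = 0.666, 0.808 and 0.738). On it the normal lung lay within the range of the tumours.

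The values behind these calls moved with the processing. Scaling all arrays to a common median raised the median of all genes in TI-K primaries minus normal lung from -0.00088 to 0.13. Under it Nfe2l2 was no longer called in TI-K primaries (1.39, adjusted p = 0.191) or TI-KM primaries (1.21, adjusted p = 0.244), nor Gclc in TI-KM primaries (2.22, adjusted p = 0.0513). Over its alternatives the adjusted p of Nfe2l2 in TI-K primaries ran from 0.00113 to 0.653. Hmox1 in TI-K primaries was 2.77 ± 0.99 (adjusted p = 0.0611) and was called under that scaling (2.89, adjusted p = 0.0219). The recurrences differed from the normal lung by -0.12 for Gstm1 and -0.14 for Gstm2, and the TI-K primaries by -1.46 and -2.30 (adjusted p = 0.0594 and 0.0544). In TI-K primaries 1, 3, 5 and 6 single arrays decided calls: without primary 1 Hmox1 was added, without 3 Gstm1 and Gstm2, without 5 Gstm2, and without 6 Gclc and Srxn1 (adjusted p 0.0104 to 0.0492). TI-KM primary 4 held back Gstm2 (adjusted p = 0.0336 without it), and recurrence 1 held back Nfe2l2 (1.05, adjusted p = 0.0408 without it).

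Of the 99 genes in the 8 lists 8 were higher and 15 lower in TI-K primaries than in the normal lung, 10 and 14 in TI-KM primaries, and 9 and 13 in recurrences, where 13.5%, 14.9% and 12.5% of all genes were called in either direction. Ephx2, the soluble epoxide hydrolase, had the widest difference, at -5.75, -5.25 and -5.03 on the log2 scale, with 8323 in the normal lung against 54.5 to 543 in the tumours. The adipocyte signal given above differed the same way, and its part in this difference was not tested. Glrx, which reverses the coupling of glutathione to proteins, was higher by 1.98, 1.86 and 1.495. Prdx4 was higher by 3.28 in TI-KM primaries (adjusted p = 0.00139).

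The recurrences did not form 1 pattern. Each was set against the TI-KM primaries of its own array set, 6 for recurrences 1 to 4 and 8 for recurrences 5 and 6. Gstm2 was above that mean in all 6, by 1.34, 1.10, 1.18, 0.83, 2.90 and 1.47, and Gstm1 by 0.20, 0.39, 0.47, 0.28, 1.28 and 1.04. Txnrd1 was above it in all 6 as well, by 0.24, 0.64, 1.64, 0.45, 0.64 and 0.63. These values are of 1 probe set per gene, and others differed. On Txnrd1 probe set 1424486_a_at recurrences 1 and 2 (261 and 259) lay below all TI-KM primaries of their set (272 to 511). On 1424487_x_at recurrence 1 (24.3) lay below those primaries (54.2 to 188). On Gstm1 probe set 1425626_at recurrence 1 lay just below the mean of its set. Gclc ran from -1.71 in recurrence 1 to 1.09 in recurrence 3, so the gene of the rate-limiting subunit of glutathione synthesis differed in sign between recurrences of the same set. Aldh3a1 was above in the 4 recurrences of the high-18S set (1.30, 1.56, 0.45 and 0.63) and below in the other 2 (-0.12 and -0.24). A test of whether the change from TI-KM primaries differs between the 2 sets called 0 of 14602 genes by limma, with 807 at an unadjusted p under 0.05. Of the 10 genes only Gclm had such a p there (-0.90, p = 0.0202 and adjusted p = 0.809 by limma).

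**Figure D4:**
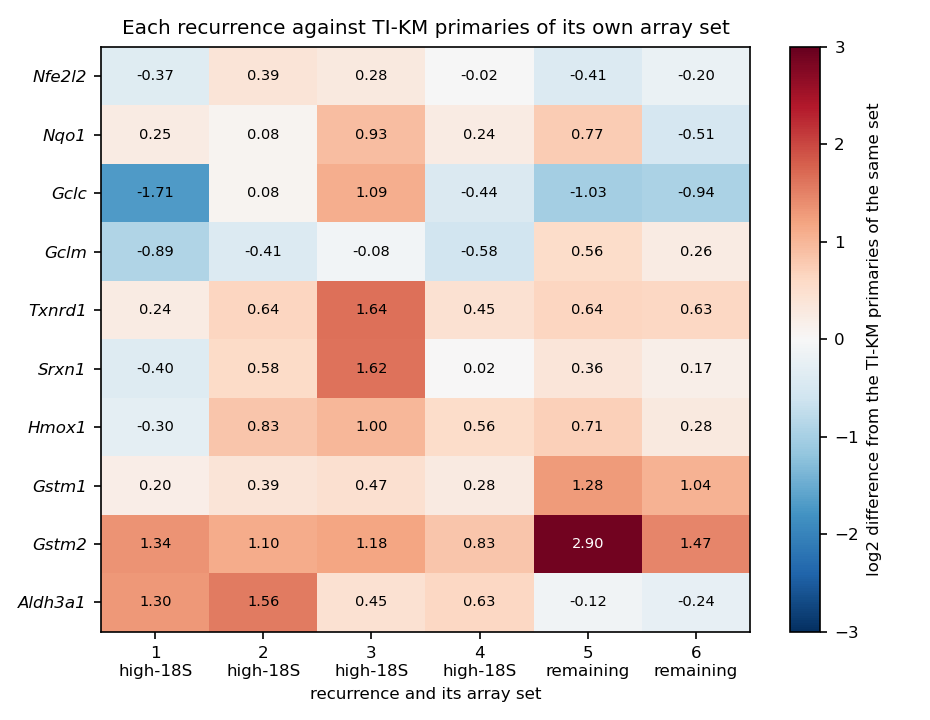
Log2 difference of each recurrence from the mean of the TI-KM primaries of the same array set, for the 10 genes (vertical) in recurrences 1 to 6 (horizontal), with the value in each cell and red above and blue below 0. Gstm2, Gstm1 and Txnrd1, each by its main probe set, are red in all 6 columns. Gclc runs from -1.71 in recurrence 1 to 1.09 in recurrence 3.

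Recurrence 3, singled out after its values were seen, held the highest signal of all 29 arrays for 5 of the 10 genes, where 6.81% of all genes were highest in it. Txnrd1 gave 3535 there and at most 1922 elsewhere, and Srxn1 gave 1731 and at most 942, each 1.84-fold above the next array. Nqo1 gave 226 and at most 159, Gclc 16400 and at most 14240, and Hmox1 2220 and at most 1975. By probe set, 10 of the 21 were highest in it, among them all 3 of Txnrd1, 3 of the 4 of Srxn1 and the second probe set of Nfe2l2, at 2.99-fold above the next array. Its Gstm1 and Gstm2, at 4825 and 1310, lay within the range of the other recurrences, and its Aldh3a1, at 140, was the lowest of the 6. Of the other 5 recurrences only recurrence 5 was the highest array for a listed gene, Gstm2.

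The same array led 11 of the 99 genes of the lists (11.1%), against 9, 8, 0, 6 and 2 in recurrences 1, 2, 4, 5 and 6. Of all genes 13.4%, 6.25%, 1.83%, 2.01% and 1.81% were highest in these 5. In recurrence 3 the gene farthest from the other arrays was Slc7a11, the cystine carrier that supplies glutathione synthesis, at 1381 against 1.83 to 186 (median 43.0). Gsr, which returns oxidised glutathione to its reduced form, gave 1520 against at most 1251. Mafk and Maff, small Maf partners of Nrf2, gave 1990 and 2153 against at most 1348 and 1606. Cbr3, a carbonyl reductase, gave 7738 against at most 4700. Sqstm1, Gpx2, Gstp1, Ahr, Akr1b8 and Abcc3 completed the 11. These genes were named because they were highest in 1 array, with no replicate, so no test was made. The summed macrophage signal of this array, 7568, and its summed fibroblast signal, 4790, were each the lowest of all tumours. Its ciliated signal was 1208 and its club signal 28221, both within the range of the other recurrences. The part of these cells in the values of this array was not tested.

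**Figure D5:**
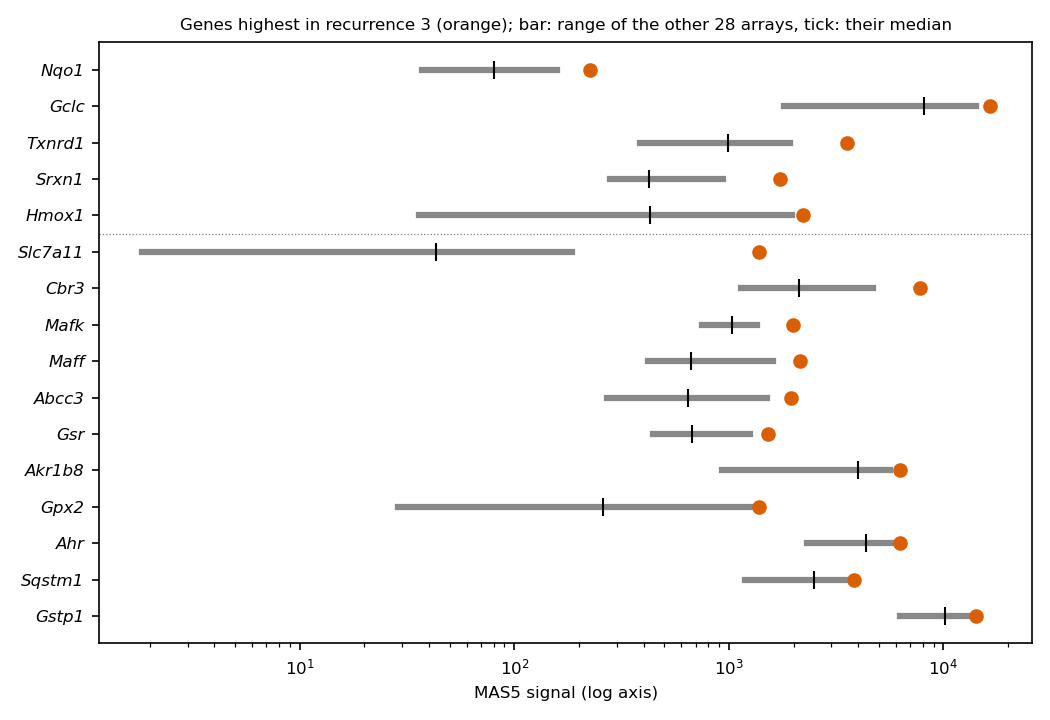
MAS5 signal (log axis) of the 16 genes that were highest in recurrence 3 (orange point), the 5 listed genes above the dotted line and 11 genes of the lists below it, with the range of the other 28 arrays as a bar and their median as a tick. Slc7a11 lies farthest beyond its bar, at 1381 against at most 186.

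Over the 28 tumour arrays the listed genes fell into few pairs that ran together. Spearman's rho, as a description over arrays that share groups and sets, was 0.85 between Gstm1 and Gstm2 and 0.75 after the mean of each group and set was removed. Between Txnrd1 and Srxn1 it was 0.79 and 0.47, between Gclc and Gclm 0.31 and 0.54. For Nfe2l2 it was -0.40 and -0.08 with Nqo1 and -0.46 and 0.11 with Hmox1. With Txnrd1 it was -0.195 and 0.435, with Srxn1 -0.287 and 0.297, and with Aldh3a1 0.512 and 0.238. With Gclc it was 0.215 and 0.235, with Gclm -0.0060 and 0.080, with Gstm1 -0.345 and -0.0011, and with Gstm2 -0.436 and -0.027. The genes outside the list most like each member, by rho over the 28 tumours with the residual value after it, were Dsg2 (0.92 and 0.82) and Acox2 (0.90 and 0.77) for Gstm2. For Gstm1 they were Dsg2 (0.87 and 0.73) and Rassf9 (0.84 and 0.71). Txnrd1 was most like Vasp (0.90 and 0.75) and Fam110a (0.81 and 0.72). Dsg2, a desmosomal cadherin, thus led for both mu-class genes. For Nfe2l2 they were Bag2 (0.83 and 0.67) and Anxa3 (0.81 and 0.80), and for Srxn1 Sv2a (0.82 and 0.63) and Acr (0.82 and 0.62). Hmox1 was most like Slc51a (0.89 and 0.65) and Tgfb1 (0.88 and 0.29). Nqo1 was most like 6820408C15Rik (0.85 and 0.55) and 2310034G01Rik (0.84 and 0.37). Where the residual value is far lower, as for Tgfb1, most of the likeness lay between groups and sets. The likeness was weakest for Gclm, with Rcan1 (0.61 and 0.64) and H60c (0.59 and 0.53), and was middling for Gclc, with Thbs1 (0.71 and 0.54) and Ubxn4 (0.69 and 0.73), and for Aldh3a1, with Plrg1 (0.76 and 0.51) and Ufl1 (0.76 and 0.45).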

How the data were processed

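Total RNA of 29 mouse lung samples was extracted, amplified, labelled with biotin and hybridised to Affymetrix arrays, per the labels' protocols. The authors deposited 1 table of MAS5 signal intensities, on a linear scale and never negative, per the submitters' processing notes, which give no version or settings. The series text names an A array of the mouse genome set, while the table holds 45101 probe sets, more than such an array alone. Each array's mean, with 2% trimmed at either end, was 500.003, so the authors' values are scaled and give no depth; the number of arrays limits the precision.

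Of the probe sets, 64 were controls, 34945 named 1 gene (34741 matched to RefSeq by gene ID), 932 named several and 9160 named none. A probe set was kept where it passed the 40th percentile of its array on at least 6 arrays (31932 kept). Each gene took its kept probe set of highest mean, which left 14602 genes. limma 3.58.1 in R 4.3.3 (lmFit, eBayes with a variance trend) was run on log2(signal + 20) with the 4 groups and no covariate, and p-values were adjusted by Benjamini-Hochberg over all genes tested. Fold changes on that scale understate the change of low genes. The code was tested on simulated data. Tables and figures used pandas 2.3.3, numpy 2.4.6 and matplotlib 3.10.9 under Python 3.11.15.

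Groups came from the labels, and replicate numbers were given in accession order. The members and the 8 pathway lists were chosen with earlier results of these data known. Named besides the members were, per list and tumour comparison, up to 2 called genes of largest change in each direction (the 1 of smallest p where none was called, given only where it helps), for each comparison with the normal lung the 1 largest in each direction, Keap1, and the 2 genes most like each member. Genes outside this rule are said to be so. Of the 116 listed pathway genes 99 were tested. The alternatives were other offsets (1 and 100), no filter or a stricter one, 2 other scalings, other choices of probe set, other variance models, the 2 groups alone, array sets as a block or singly, the 3′ to 5′ ratio as a covariate, TI-KM primaries 1 and 2 averaged, and each array left out in turn. Fitting every probe set singly was added after seeing the data. The array sets were defined among the tumours by an 18S control signal over 12000 or a TI-K title number over 6000. The normal lung, also over 12000, was left out of them.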

Additional observations from a re-analysis of the deposited data

Results flagged for a closer look

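In 4 of 20 sets of values, each gene within the TI-K primaries and within the recurrences, 1 array stood apart by its gap to the nearest other on the log2 scale, relative to the group's whole range. Chance gives about 1 in 20. Nfe2l2 in TI-K primary 1 was the highest of 8, with a gap of 0.548 of the range (signal 12730). Gclc in TI-K primary 6 was the lowest, with a gap of 0.647 (signal 1810). Hmox1 in TI-K primary 1 was the lowest, with a gap of 0.837 (signal 158.6). Txnrd1 in recurrence 3 was the highest of 6, with a gap of 0.714 (signal 3535). The limits were 0.526 for 8 arrays and 0.625 for 6.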

How the results depend on the processing

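The counts of listed genes called moved as follows. TI-KM minus TI-K primaries, 0 by the design used, gave 1 with the probe set of highest variance, with the mean of probe sets and with probe sets fitted singly. Recurrences minus TI-KM primaries, 1, gave 0 with the 2 groups alone, with the 3′ to 5′ covariate and in either array set alone. Recurrences minus TI-K primaries, 6, gave 3 with the covariate and 1 with the sets as a block or in the remaining set alone. TI-K primaries minus normal lung, 1, gave 0 with the highest variance, 2 with offset 1, offset 100 or single probe sets, 3 with the stricter filter or quantile normalization, and 5 with the 2 groups or the remaining set alone. TI-KM primaries minus normal lung, 3, gave 1 with common median scaling and 6 in the remaining set. Recurrences minus normal lung, 1, gave 0 with the 2 groups alone and 2 with quantile normalization, the remaining set or single probe sets. Leaving out each array gave 0 to 1, 0 to 2, 2 to 6, 1 to 3, 3 to 4 and 1 to 2 in these 6 comparisons, in that order. The cause was not tested.

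Of 3903 values of named genes, 130 by the design used, 3437 kept their direction and side of the threshold, 280 lost a call, 44 gained one and 12 reversed. The reversed values were, with the probe set of highest variance, Sod1 -0.55 in TI-KM minus TI-K primaries, Gclm 0.53, Sod1 -0.84 and Txn1 0.44 in recurrences minus TI-K primaries, Abcc5 -0.20 in TI-KM primaries minus normal lung and Abcc1 0.24 in recurrences minus normal lung. With the mean of probe sets they were Abcc5 0.0057 in TI-KM minus TI-K primaries and Sod1 -0.24 in recurrences minus TI-K primaries. Without _x_at, _s_at and _a_at probe sets Abcc5 gave 0.25 and Prdx4 -0.29 in TI-KM minus TI-K primaries, and Prdx4 gave -0.012 there with the block and -0.026 in the remaining set.

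Over all genes the calls in TI-KM minus TI-K primaries, 1170, were 388 to 475 without any one of TI-K primaries 1 to 5, 754 to 756 without TI-KM primary 1, 2 or 4, 766 with primaries 1 and 2 averaged, 1862 with quantile normalization, 2119 with the highest variance and 0 with the block (707 at an unadjusted p under 0.05) or in the remaining set (1027). In recurrences minus TI-KM primaries, 38, they were 0 with the covariate, 1 in the high-18S set, 10 with the 2 groups alone, 12 in the remaining set, 72 and 86 with quantile normalization and the highest variance, 103 with the block, and 12 to 142 without single arrays. In recurrences minus TI-K primaries, 2758, they were 14 with the block, 19 in the remaining set, 1558 with the covariate and 1624, 1702 and 1816 without recurrence 2, 3 or 4. Against the normal lung, 1969, 2169 and 1819, they were 1203, 1395 and 1081 with common median scaling, 3471, 3820 and 2933 in the remaining set, and 3103 and 389 with the 2 groups alone for TI-K primaries and recurrences. No paired analysis was possible because replicate numbers were given in accession order and pair no samples. The normal lung is 1 array, signals near 20 carry little order, and the TI-K comparisons with the block rest on 3 arrays.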
